A study of Mus musculus with 8 samples.

Results

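Mural cells are the pericytes and vascular smooth muscle cells that wrap blood vessels. Pericytes sit on capillaries, where endothelial cells recruit them through platelet-derived growth factor B and its receptor PDGFRB, and they carry an ATP-sensitive potassium channel that sets vessel tone. Smooth muscle cells sit on arterioles, arteries and veins and contract with a set of actin and myosin proteins, and NOTCH3 signalling maintains both kinds of cell. Sympathetic ganglia are supplied by many small vessels, so RNA from a whole ganglion carries the transcripts of these cells.

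The 10 genes described here were the rows of the counts table named Pdgfrb, Notch3, Rgs5, Kcnj8, Abcc9, Cspg4, Acta2, Tagln, Myh11 and Cnn1, out of 23827 rows. All 10 were found, each on 1 row. The libraries came from superior cervical ganglia of C57Bl6/n mice on postnatal day 1, and each library held the ganglion pair of a single animal. The 4 control libraries, labelled WT, came from mice of genotype KIF1Bb fl/fl with DBHcre -/-, and the 4 conditional knockout libraries, labelled cKO, from mice with KIF1Bb fl/fl and DBHcre +/-. All 8 mice therefore carried the floxed allele and differed in the Cre transgene. The Dbh promoter drives Cre in noradrenergic cells, so the deletion was aimed at the neurons and not at the vessel wall, and the RNA was of the whole ganglion. The sources used here do not give litters or preparation dates.

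Total counts lay between 16214912 and 18114418 per library. CPM is a gene's count per library total after scaling between libraries. The deletion was checked on Kif1b (minus strand of chromosome 4, GRCm38, 149176319 to 149307693), which was at 1224 ± 222 CPM (SD, n = 4) in WT and 260 ± 52.7 CPM (SD, n = 4) in cKO libraries. Of 14592 genes tested with edgeR, 397 (2.72%) passed at a Benjamini-Hochberg adjusted p below 0.05, and DESeq2 passed 6.95%. WT 1 and cKO 1 stood apart from the other libraries in skeletal muscle markers (69.1 and 212 summed CPM over 13 genes, against 11.8 to 20.6 in the other 6 libraries) and in red blood cell markers.

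Pdgfrb and Notch3 rose in cKO ganglia at an adjusted p below 0.05, and no mural gene fell. The summed level of the 10 genes was 214 to 228 CPM in the 4 WT libraries and 320 to 439 CPM in the 4 cKO libraries. Of the 9 members with enough counts for the test, 2 passed, where 1.60% of all tested genes passed in this direction. The other 7 had positive log2 fold changes of 0.52 to 1.21 that did not pass. The median of the 9 log2 fold changes was 0.77, beside -0.001 for all tested genes, of which 49.9% had a positive value. At an unadjusted p below 0.05 all 9 were higher, as were 9.42% of all tested genes. The members were chosen with earlier results of these data known, so the contrast with all genes is a description. Cnn1 had too few counts to be tested. DESeq2 passed 6 of the 9 (Pdgfrb, Notch3, Kcnj8, Tagln, Acta2 and Myh11), where it passed 3.88% of genes in this direction. With 1 library left out edgeR passed between 0 of them (without WT 2, WT 3, WT 4 or cKO 3) and 4 (without cKO 1), and 2 without both WT 1 and cKO 1.

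**Figure D1:**
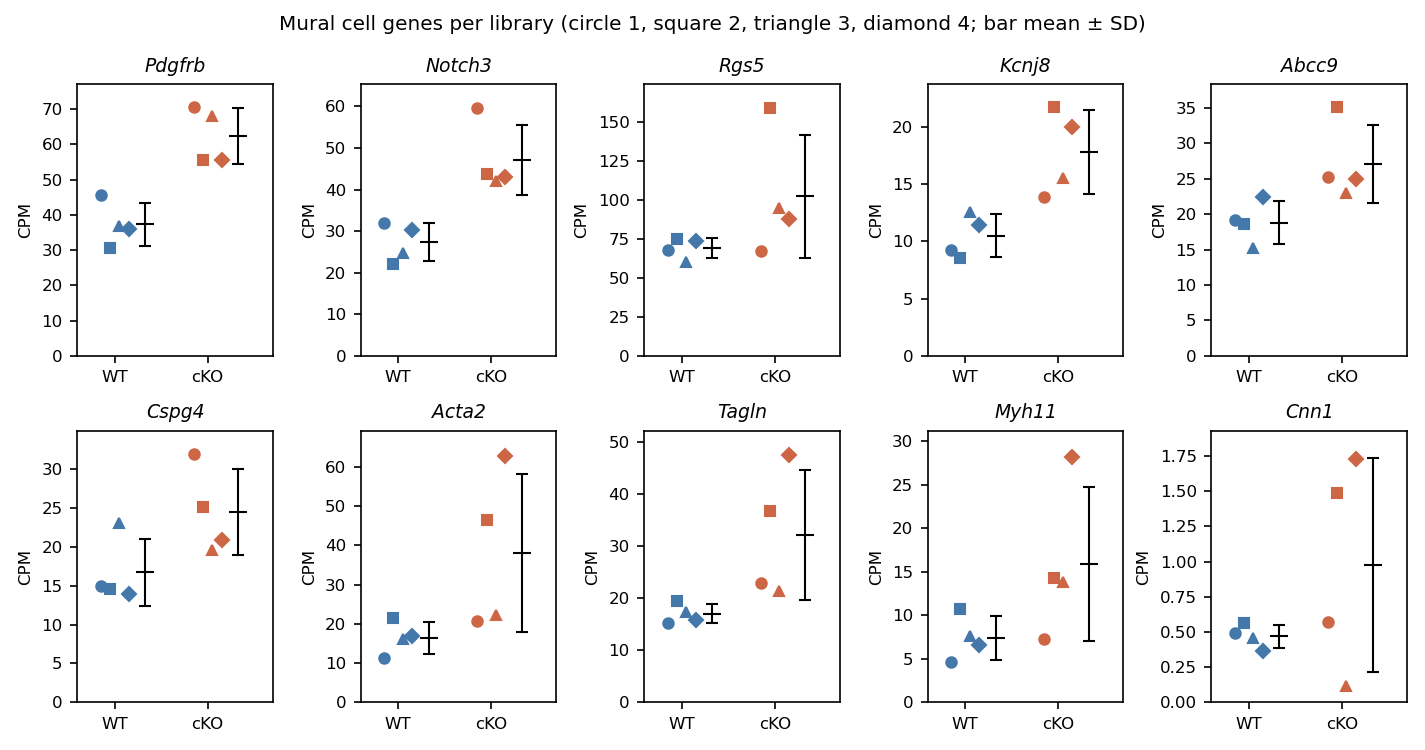
CPM of the 10 mural genes in each library, with 1 panel per gene, WT in blue and cKO in orange, the symbol giving the library number and the black bar the mean ± SD of 4 libraries. Pdgfrb, Notch3, Kcnj8, Abcc9 and Tagln show cKO libraries that all lie above the WT libraries, Acta2, Tagln and Cnn1 show cKO 2 and cKO 4 far above the rest, and Myh11 shows cKO 4 alone.

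Pdgfrb encodes the receptor for platelet-derived growth factor B that recruits pericytes to new vessels (chromosome 18, 61045150 to 61085061, plus strand, GRCm38). It stood at 45.5, 30.7, 36.8 and 36.1 CPM in WT 1 to WT 4 and at 70.6, 55.5, 67.9 and 55.6 CPM in cKO 1 to cKO 4. The lowest cKO library lay above the highest WT library. The mean went from 37.3 ± 6.13 to 62.4 ± 8.01 CPM (SD, n = 4 each), a 1.68-fold rise (log2 fold change 0.74, SE 0.14, edgeR adjusted p = 0.0231).

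Notch3 encodes the Notch receptor of mural cells (chromosome 17, 32120820 to 32166852, minus strand). It stood at 31.9, 22.2, 24.7 and 30.4 CPM in WT 1 to WT 4 and at 59.7, 43.7, 42.1 and 43.0 CPM in cKO 1 to cKO 4. The groups did not overlap, and cKO 1 stood above the other cKO libraries, which lay close together. Notch3 rose 1.73-fold (log2 fold change 0.79, SE 0.16, edgeR adjusted p = 0.0285). The annotation places an antisense gene, Gm17276, across Notch3, and this gene was not in the table. The profiles of Pdgfrb and Notch3 over the 8 libraries were the most alike of the 36 pairs of tested members: centred on each gene's mean log2 CPM, they differed by a root mean square of 0.147. Both calls depended on single libraries. That of Pdgfrb was lost without WT 2, WT 3, WT 4, cKO 1 or cKO 3, with adjusted p from 0.0115 to 0.0877 over the 8 libraries left out. That of Notch3 was lost without WT 2, WT 3, WT 4, cKO 2 or cKO 3, with adjusted p from 0.0222 to 0.106.

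Kcnj8 and Abcc9 encode the pore (Kir6.1) and the sulfonylurea receptor (SUR2) of the ATP-sensitive potassium channel of pericytes and vascular smooth muscle. They lie next to each other on chromosome 6, on the minus strand, with 16247 bases between Kcnj8 (142564837 to 142571614) and Abcc9 (142587862 to 142702315, GRCm38). Kcnj8 stood at 9.26, 8.52, 12.6 and 11.4 CPM in WT 1 to WT 4 and at 13.9, 21.7, 15.5 and 20.0 CPM in cKO 1 to cKO 4. Abcc9 stood at 19.1, 18.6, 15.2 and 22.4 CPM in WT 1 to WT 4 and at 25.2, 35.1, 22.9 and 24.9 CPM in cKO 1 to cKO 4. For both genes all cKO libraries lay above all WT libraries, and cKO 2 was the highest, but for Abcc9 the lowest cKO library was close to the highest WT library. The log2 fold change was 0.77 for Kcnj8 (SE 0.18, edgeR adjusted p = 0.0538) and 0.52 for Abcc9 (SE 0.16, edgeR adjusted p = 0.129), so neither passed. With library size alone as the scaling, Kcnj8 passed (log2 fold change 0.82, edgeR adjusted p = 0.0468). Abcc9 overlaps an antisense gene, 5330439B14Rik, which was at most at 0.123 CPM in any library. The paralogues that form this channel in other tissues, Kcnj11 and Abcc8, did not pass by edgeR or by DESeq2, and neither had an unadjusted p below 0.05. On the log2 scale Kcnj11 differed by 0.13 (SE 0.22) and Abcc8 by -0.34 (SE 0.17).

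Rgs5 encodes a regulator of G protein signalling that is among the strongest pericyte markers (chromosome 1, 169655501 to 169695813, plus strand, GRCm38). It stood at 68.1, 75.0, 60.4 and 73.5 CPM in WT 1 to WT 4 and at 67.6, 159, 95.1 and 87.7 CPM in cKO 1 to cKO 4. The WT libraries lay close together, cKO 1 fell among them, and cKO 2 stood far above every other library. The log2 fold change of 0.57 (SE 0.22) did not pass (edgeR adjusted p = 0.228), and it was 0.27 without cKO 2. Of 5 related small RGS genes none passed, by edgeR or by DESeq2, and none had an unadjusted p below 0.05. On the log2 scale Rgs2 differed by -0.20 (SE 0.15) and Rgs3 by -0.13 (SE 0.13).

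Cspg4 encodes the NG2 proteoglycan, a surface protein of pericytes that glial precursors, cartilage and some other cells also carry (chromosome 9, 56865033 to 56899870, plus strand, GRCm38). It stood at 15.0, 14.6, 23.1 and 13.9 CPM in WT 1 to WT 4 and at 31.9, 25.1, 19.6 and 20.9 CPM in cKO 1 to cKO 4. The groups overlapped through WT 3, which stood above cKO 3 and cKO 4. The log2 fold change of 0.55 (SE 0.20) did not pass (edgeR adjusted p = 0.195). It was 0.75 without WT 3 and 0.38 without cKO 1.

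The contractile genes Acta2, Myh11 and Tagln had the largest log2 fold changes of the 9 tested members. Acta2, which encodes smooth muscle alpha-actin, is a target of serum response factor, a transcription factor that binds the CArG box. Its promoter is shown because this gene had the largest log2 fold change of the 9. In the RefSeq window of 250 bases before to 50 bases after its start (GRCm38.p6), a search that allowed 1 C or G among the A and T letters inside the box, on both strands, found the 2 matches given here 5′ to 3′ on the minus strand of chromosome 19, with the box in capitals.
Acta2 upstream box, chr19:34255438-34255467: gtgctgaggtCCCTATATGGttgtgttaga
Acta2 downstream box, chr19:34255388-34255417: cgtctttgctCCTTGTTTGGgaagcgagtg
The boxes began 84 and 34 bases before the RefSeq start at 34255373. GENCODE places the outermost start of Acta2 217 bases further upstream, so in that annotation both boxes lie inside the gene. Such a relaxed match was present in 8.50% of 32851 promoter windows of this length, and the CArG box without this allowance in 1.63%. Of the 7 members with a window in the table only Acta2 held the relaxed form and none the strict form. Pdgfrb, Tagln and Myh11 had no window and were not searched, so Cnn1 was the only other contractile member searched. The relaxed form was searched after the strict form had given no match.

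Acta2 (34241090 to 34255590, minus strand, GRCm38) stood at 11.4, 21.4, 16.1 and 16.9 CPM in WT 1 to WT 4 and at 20.7, 46.3, 22.3 and 62.6 CPM in cKO 1 to cKO 4. Libraries cKO 2 and cKO 4 were far above all others, while cKO 1 lay below WT 2. The log2 fold change was 1.21 (SE 0.35) and did not pass (edgeR adjusted p = 0.0976). It was 0.85 without cKO 4. Actins resemble each other, and 0.352% of the stretches of 50 bases in the longest Acta2 transcript also occurred in transcripts of another gene, so few reads of that length could be shared.

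Tagln, which encodes the actin-binding protein transgelin of smooth muscle, lies on chromosome 9 (45929619 to 45936058, minus strand, GRCm38). It stood at 15.2, 19.4, 17.4 and 15.9 CPM in WT 1 to WT 4 and at 23.0, 36.7, 21.3 and 47.5 CPM in cKO 1 to cKO 4. All cKO libraries lay above all WT libraries. The log2 fold change was 0.92 (SE 0.24, edgeR adjusted p = 0.0704). On the opposite strand Tagln overlaps Pcsk7, whose log2 fold change was 0.00 (SE 0.11). The sources used here do not say if reads were counted by strand.

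Myh11 encodes the smooth muscle myosin heavy chain, the most specific marker of mature smooth muscle (chromosome 16, 14194535 to 14291372, minus strand, GRCm38). It stood at 4.60, 10.7, 7.67 and 6.63 CPM in WT 1 to WT 4 and at 7.26, 14.3, 13.8 and 28.2 CPM in cKO 1 to cKO 4. Library cKO 1 lay within the WT range, and cKO 4 stood above all others. The log2 fold change was 1.11 (SE 0.38, edgeR adjusted p = 0.159), and 0.67 without cKO 4.

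Cnn1, which encodes calponin 1 of contractile smooth muscle (chromosome 9, 22099216 to 22109630, plus strand, GRCm38), was close to absent. It had 8, 9, 8 and 6 counts in WT 1 to WT 4 and 10, 25, 2 and 32 counts in cKO 1 to cKO 4. The 2 libraries with the most Cnn1 were those with the most Acta2 and Tagln, cKO 2 and cKO 4. Tested without the filter on low counts, Cnn1 had a log2 fold change of 1.05 and did not pass (edgeR adjusted p = 0.486).

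The cKO libraries differed in which members stood highest. Among the cKO libraries, cKO 1 was the highest for 3 members (Pdgfrb, Notch3 and Cspg4), cKO 2 for 3 (Rgs5, Kcnj8 and Abcc9) and cKO 4 for the 4 contractile genes. Against the highest WT library, 7 of the 10 members were higher in cKO 1, 10 in cKO 2, 8 in cKO 3 and 9 in cKO 4. On the log2 scale, Acta2 and Myh11 in cKO 4 were 1.96 and 1.98 above the WT mean, where Pdgfrb and Notch3 in the same library were 0.59 and 0.67 above it. In cKO 1, Pdgfrb and Notch3 were 0.93 and 1.14 above the WT mean and Myh11 was 0.04 above it. WT 1, in turn, held the most Pdgfrb and Notch3 and the least Acta2, Tagln and Myh11 of the WT libraries. Groups did not overlap in 5 of the 9 tested members, where 6.0% of all tested genes were higher in cKO without overlap. The coefficient of variation between cKO libraries was 12.8% for Pdgfrb and 17.8% for Notch3, against 53.2% for Acta2 and 55.5% for Myh11, and it was 38.5% for Tagln and 38.8% for Rgs5.

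**Figure D2:**
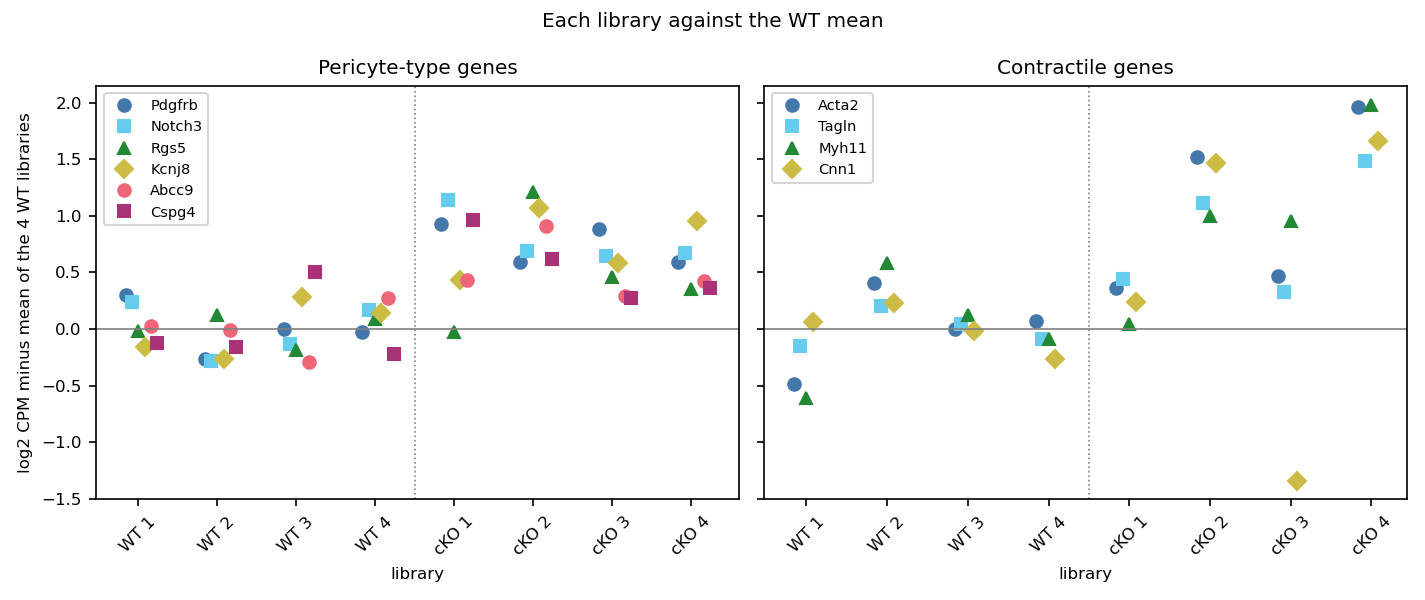
Log2 CPM of each mural gene in each library minus the mean of the 4 WT libraries, with the pericyte-type genes at left and the contractile genes at right. In cKO 4 the contractile genes reach 1.48 to 1.98, above the pericyte-type genes of the same library, and in cKO 1 Notch3 is the highest gene at 1.14.

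Whether any member changed by another amount than Pdgfrb, or than the endothelial adhesion gene Pecam1, was tested on the log2 ratio of each member to these genes, 19 ratios in all. None passed (two-sided exact permutation test over 70 assignments, smallest possible p 0.0286, smallest p found 0.229, adjusted p = 1.0 for each). The log2 ratio of Acta2 to Pdgfrb was -1.19 ± 0.60 in WT and -0.87 ± 0.97 in cKO libraries (SD, n = 4 each), so its spread between libraries exceeded the difference of 0.33. The ratio of Notch3 to Pdgfrb was the tightest, at -0.45 ± 0.14 and -0.41 ± 0.19. That of Pdgfrb to Pecam1 was -0.21 ± 0.16 and -0.01 ± 0.24. With 19 ratios, 1 ratio alone at the smallest possible p would have an adjusted p of 0.543, and 11 would have to reach it together to pass, so this design could not show a difference confined to a few genes.

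Per kilobase of annotated exon, which allows levels to be compared between genes, Rgs5 was the most abundant member in WT ganglia at 15.2 ± 1.45 CPM per kilobase (SD, n = 4). Tagln, Acta2 and Pdgfrb followed at 8.54 ± 0.937, 7.49 ± 1.86 and 6.80 ± 1.12, and neighbours in this order did not differ beyond their spread. The spreads of Kcnj8 (4.10 ± 0.741) and Notch3 (3.37 ± 0.567) overlapped, and Abcc9 (2.25 ± 0.355), Cspg4 (1.40 ± 0.364) and Myh11 (0.972 ± 0.332) were lower. Cnn1 came last at 0.172 ± 0.0302. In cKO ganglia Rgs5 (22.5 ± 8.74), Acta2 (17.3 ± 9.19) and Tagln (16.2 ± 6.22) overlapped, and the spreads of Acta2 and Tagln also took in Pdgfrb at 11.4 ± 1.46.

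Further genes of the same cells and pathways were read from the same fit. Of 20 tested genes of a list of other pericyte genes, 5 rose, 2 fell and 13 did not pass, with a median log2 fold change of 0.49. Cox4i2 and Ndufa4l2, which encode variants of respiratory chain subunits that pericytes express, rose by 1.38 (SE 0.22, edgeR adjusted p = 0.0114) and 1.24 (SE 0.22, edgeR adjusted p = 0.0182) on the log2 scale. Foxc1, a transcription factor of mural cells and mesenchyme, rose from 2.24 ± 0.306 to 5.12 ± 1.39 CPM. Cd248 and Ebf2, which connective tissue cells also express, rose by 0.66 (SE 0.15, edgeR adjusted p = 0.0454) and 0.58 (SE 0.13, edgeR adjusted p = 0.0429), both close to the threshold. The genes of this list that fell were Gucy1a3 and Gucy1b3, the subunits of the nitric oxide receptor guanylyl cyclase, which neurons express as well. On the log2 scale Gucy1a3 fell by 0.50 (SE 0.09) and Gucy1b3 by 0.61 (SE 0.12). Their levels in WT libraries were 181 ± 11.4 and 142 ± 20.7 CPM (SD, n = 4). Mcam, at 716 ± 48.5 CPM, did not pass (log2 fold change -0.11, SE 0.09). Mcam was the largest part of the summed level of the 22 listed genes. This sum was 1315 to 1487 CPM in WT and 1304 to 1425 CPM in cKO libraries, so the groups overlapped. Left out 1 at a time, the libraries gave between 0 calls in this list (without WT 2 or WT 4, when 12 of the 20 genes still had an unadjusted p below 0.05) and 5, and 4 without both WT 1 and cKO 1. Of all tested genes, 1801 of 14730 without WT 2 and 1817 of 14709 without WT 4 had an unadjusted edgeR p below 0.05. Calls of Cox4i2 and Ndufa4l2 were lost without WT 2 or WT 4. That of Foxc1 was lost without WT 2, WT 3, WT 4, cKO 2 or cKO 4, or without both WT 1 and cKO 1 (adjusted p = 0.060), and that of Gucy1a3 without any library except WT 1 or cKO 1.

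Of 19 tested genes of a list of other contractile genes, 1 rose and none fell, and the median log2 fold change was 0.22. The gene that rose was Mylk, the kinase that starts smooth muscle contraction by phosphorylating myosin light chain. It stood at 7.85, 7.71, 7.50 and 6.50 CPM in WT 1 to WT 4 and at 13.4, 13.2, 9.76 and 17.4 CPM in cKO 1 to cKO 4 (log2 fold change 0.86, SE 0.18, edgeR adjusted p = 0.0317). The groups did not overlap, and cKO 4 was again the highest. DESeq2 passed 5 genes of this list. The edgeR call of Mylk was lost without any library except WT 1 or cKO 3, and without both WT 1 and cKO 1 (adjusted p = 0.057). Actg2, the gamma-actin of visceral smooth muscle, had 1.29 to 2.38 CPM in WT and 1.82 to 5.72 CPM in cKO libraries and did not pass, and its highest library was cKO 4.

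Among the platelet-derived growth factor ligands and receptors other than Pdgfrb, 1 of 6 rose and none fell. This was Pdgfra, the receptor of fibroblasts and other mesenchyme, at 32.4, 24.5, 32.2 and 40.7 CPM in WT 1 to WT 4 and at 59.8, 69.3, 75.1 and 59.6 CPM in cKO 1 to cKO 4 (log2 fold change 1.02, SE 0.15, edgeR adjusted p = 0.00861). The groups did not overlap, and its call held with each of the 8 libraries left out. Pdgfb, the ligand by which endothelium recruits pericytes, went from 6.55 ± 1.89 to 9.31 ± 1.65 CPM (SD, n = 4 each) and did not pass (log2 fold change 0.51, SE 0.22). Of 12 further genes of vascular Notch signalling only Notch2 rose, by 0.51 on the log2 scale (SE 0.12, edgeR adjusted p = 0.046), and none fell. That call was lost without any library except WT 1 or cKO 4, and without both WT 1 and cKO 1 (adjusted p = 0.0595). Neither Jag1, an endothelial ligand of NOTCH3 (log2 fold change 0.27, SE 0.11), nor Heyl, a Notch target of mural cells that the pericyte list also holds (0.26, SE 0.14), passed. Pdgfra is likewise in the fibroblast list used further on.

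**Figure D3:**
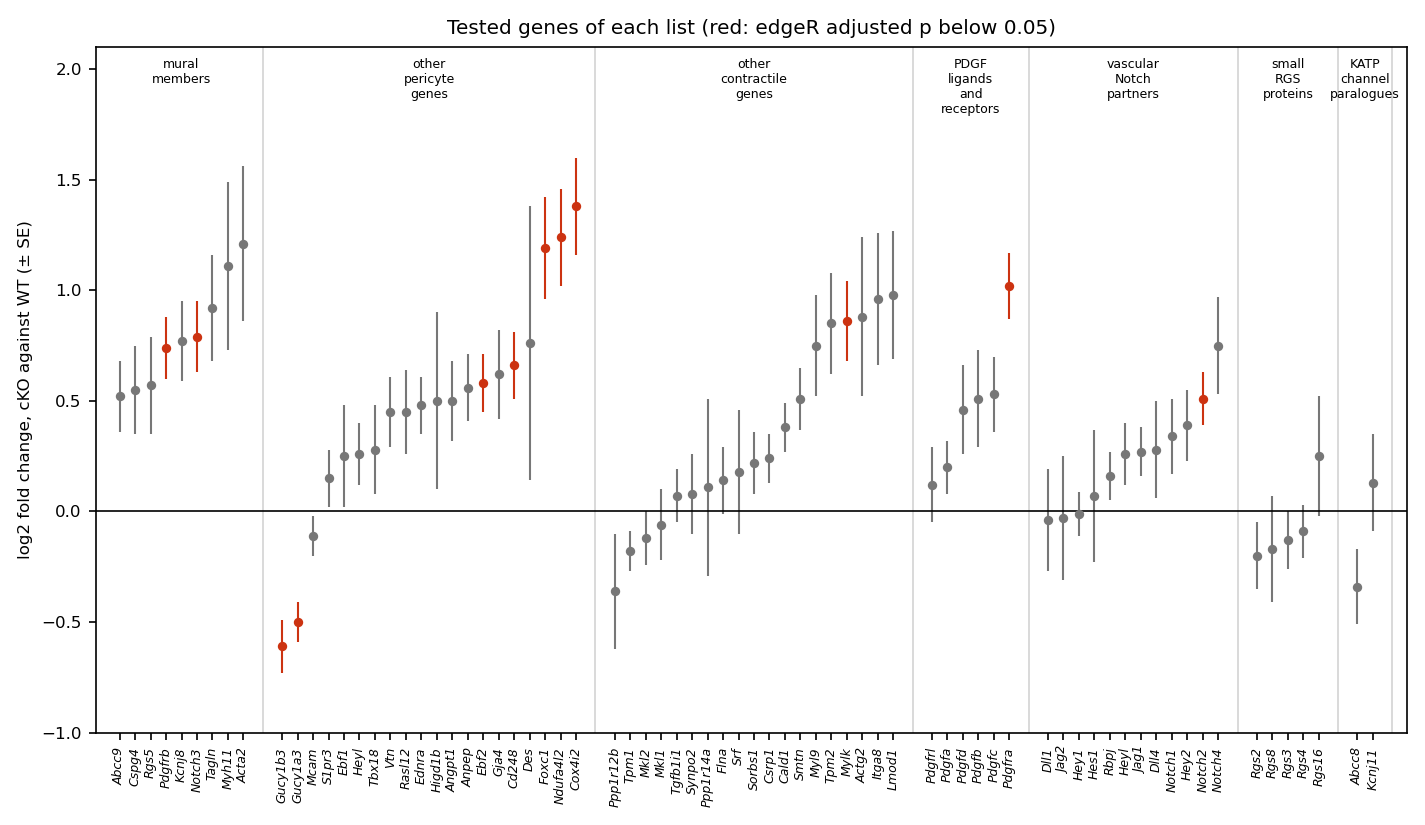
Log2 fold change of cKO against WT with its standard error for each tested gene of the mural members and 6 further lists, with genes that passed in red. All 9 tested members lie above 0 with Pdgfrb and Notch3 in red, and Gucy1a3 and Gucy1b3 are the red points below 0.

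Of 11715 genes at a mean of 5 CPM or more, the 6 whose profile over the 8 libraries was most like the mean profile of the 9 tested members were Cd82, Ppic, Itm2a, Mdk, Rbpms and Adm. Their root mean square differences from that profile were 0.0656 for Cd82 and between 0.0899 and 0.111 for the others. Those of the members ran from 0.155 for Kcnj8, the closest, to 0.484 for Myh11, the farthest. The 6 genes were picked for closeness and the members were not, so the smaller differences of the 6 follow from that choice. This profile includes the difference between the groups, so that the 6 genes also differed between them is a description. Cd82 stood at 17.8 to 20.2 CPM in WT and at 26.6 to 37.2 CPM in cKO libraries.

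Markers of other cell types moved in the same libraries. The summed level of 14 endothelial genes was 225 to 311 CPM in WT and 362 to 391 CPM in cKO libraries, and 3 of the 14 rose (Pecam1, Eng and Tek), none fell and the median log2 fold change was 0.50. Pecam1 rose by 0.54 on the log2 scale (SE 0.09, edgeR adjusted p = 0.0166), a call lost without WT 2, WT 4 or cKO 3. The 12 fibroblast genes summed to 5949 to 7642 CPM in WT and 8224 to 12080 CPM in cKO libraries, with 6 that rose and none that fell, and the 11 glial genes to 2251 to 2813 and 3409 to 3882 CPM, with 2 that rose. Col1a1, Col1a2 and Col3a1 made up most of the fibroblast sum. Apoe, at 1381 ± 227 CPM in WT and 2142 ± 185 CPM in cKO libraries (SD, n = 4 each), was the largest part of the glial sum. Fabp7 was the 1 glial gene of 11 with a negative log2 fold change (-0.06, SE 0.33). The 16 sympathetic neuron genes summed to 25491 to 27398 CPM in WT and 21106 to 23944 CPM in cKO libraries, and 1 of them, Nefl, fell. With 1 library left out, 0 endothelial genes passed without WT 2, WT 4 or cKO 3 and 5 without WT 1, 0 glial genes without WT 4 and 5 without WT 1, 2 fibroblast genes without WT 2 or WT 4, and 0 neuronal genes without WT 2, WT 4, cKO 2 or cKO 3. DESeq2 passed 7 endothelial, 9 fibroblast, 7 glial and 3 neuronal genes. None of these summed ranges overlapped between the groups, and their part in the mural result was not tested. In RNA from whole ganglia, fewer neurons and less RNA per neuron cannot be told apart. CPM is a share of the library. More mural cells, more RNA per mural cell and less RNA from other cells therefore cannot be told apart. No defining marker in these lists was at 0 in all libraries.

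Skeletal muscle markers were highest in another library than the contractile members. None of 9 tested muscle genes and none of 2 tested red blood cell genes passed, by edgeR or by DESeq2, with 1 and 0 at an unadjusted edgeR p below 0.05. The summed muscle level was 212 CPM in cKO 1 and 14.4 and 18.2 CPM in cKO 2 and cKO 4, the libraries with the most Acta2, Tagln and Cnn1. Acta1, the skeletal muscle actin, was at 109 CPM in cKO 1 and between 4.84 and 8.09 CPM in the other cKO libraries. Without both WT 1 and cKO 1, the log2 fold changes of Acta2, Tagln and Myh11 were 1.27, 1.00 and 1.18, as large as with them, and that of Cspg4 was 0.34 in place of 0.55.

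**Figure D4:**
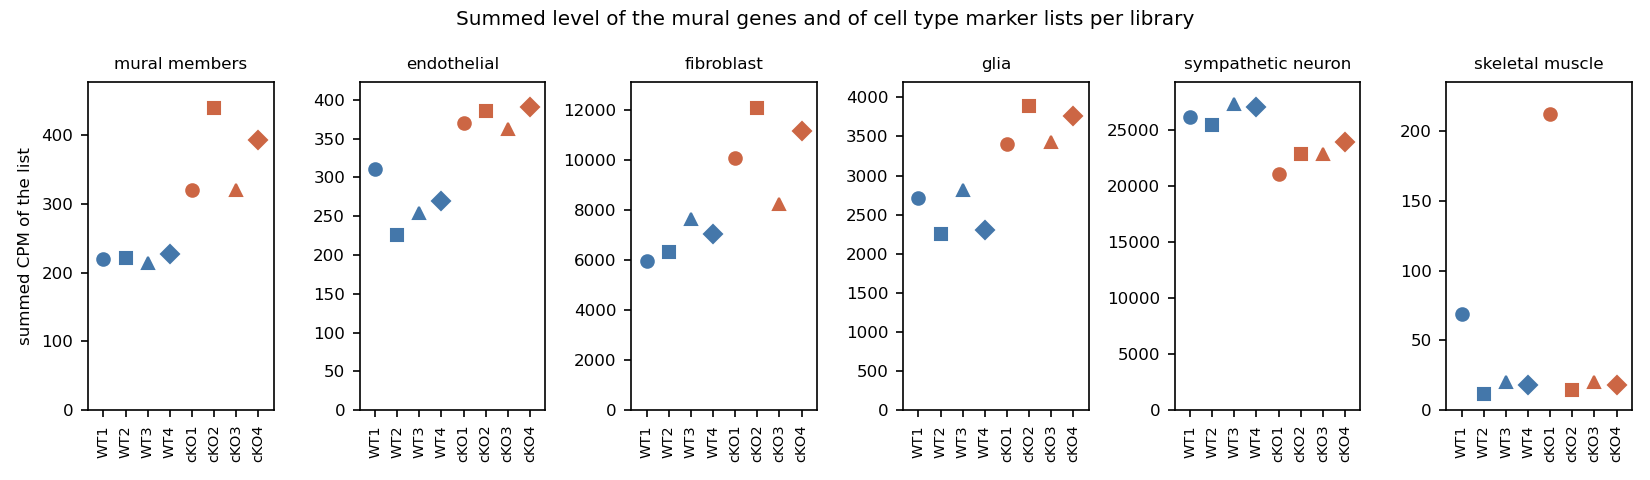
Summed CPM of the 10 mural genes and of 5 marker lists in each library, WT in blue and cKO in orange, each panel with its own scale from 0. The mural, endothelial, fibroblast and glial sums are higher and the neuronal sum lower in the cKO libraries, and the muscle sum is high in WT 1 and cKO 1 only.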

How the data were processed

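Polyadenylated RNA from 8 ganglion pairs was sequenced after TruSeq v2 library preparation, per the labels' protocols. The table the authors deposited holds read counts, 1 row per gene. The submitters' processing notes name STAR and mm10. The sources used here give no counting program, annotation, strand setting or STAR version. No pair of libraries within a group agreed within sampling noise (chi-square per gene 8.0 to 58.6), so each library was 1 replicate.

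Counts were tested over all 14592 genes that passed filterByExpr by the robust quasi-likelihood test of edgeR 4.0.16 (R 4.3.3, TMM scaling, group as the only term, Benjamini-Hochberg adjusted p below 0.05). The standard error is the absolute log2 fold change over the square root of F. CPM used TMM-scaled library sizes and log2 CPM a prior count of 2. The steps were tested on simulated counts of 14500 genes. Of the 66, 67 and 65 genes changed 1.5-fold, 2-fold and 4-fold, 24.2%, 73.1% and 98.5% passed in the right direction, so most simulated 1.5-fold changes were missed. Of all calls in the simulation, 9.15% were genes that had not been changed. These shares depend on how many genes are changed, which is not known for the real data. The members and lists were chosen with earlier results of these data known. Named were the members, Kif1b, Pecam1, the 4 smallest p-values among each list's passing genes, the 2 smallest in a list without any, and the 6 genes of most similar profile. Cd248, Ebf2, Gucy1b3, Mcam, Pdgfb, Jag1, Heyl, Actg2, Acta1 and Pcsk7 were named after their values were seen. Coordinates and exon lengths come from GENCODE vM21 (GRCm38, the assembly also called mm10), promoters from RefSeq (GRCm38.p6), and the RBPJ core GTGGGAA, searched on both strands, was in none of the 7 member windows and in 6.38% of all windows. Alternatives were DESeq2 size factors, library size alone, no filter, a minimum of 1 CPM reached by 4 libraries, DESeq2 1.42.0, limma 3.58.1 voom, the title's replicate number as a block, each library left out, WT 1 and cKO 1 left out together, and a prior count of 0.5 for the ratios.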

Additional observations from a re-analysis of the deposited data

Results flagged for a closer look

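Each value was set against the other 3 libraries of its group, and 16 of 106 groups of 4 held a library whose distance from its nearest neighbour took up more of the group's range than Dixon's test allows at the 95% level. Chance flags about 1 in 20 groups, but these groups were not independent, because the sums hold genes that were also counted singly. Of the 20 groups of members, 2 were flagged. Among the members, Notch3 was at 59.7 CPM in cKO 1 against 42.1 to 43.7 CPM in the other cKO libraries, and Cspg4 at 23.1 CPM in WT 3 against 13.9 to 15.0 CPM in the other WT libraries.

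Vessel and glial genes stood out in single WT libraries. Pecam1 was at 47.2 CPM in WT 1 (41.2 to 41.7 in the others), Tek at 7.90 CPM in WT 2 (11.1 to 11.3) and Mbp at 108 CPM in WT 1 (82.7 to 86.1). The summed contractile genes other than the members were at 1734 CPM in WT 1 (1504 to 1532) and 1944 CPM in cKO 1 (1691 to 1732).

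Muscle and blood genes stood out in the libraries numbered 1. The summed skeletal muscle genes were at 69.1 CPM in WT 1 (11.8 to 20.6) and 212.1 CPM in cKO 1 (14.4 to 20.0), and Tnni2, a fast muscle troponin, at 11.1 CPM in cKO 1 (0.27 to 0.776). The summed red blood cell genes were at 44.6 CPM in WT 1 (4.39 to 9.79) and 76.8 CPM in cKO 1 (3.94 to 9.06). Alas2, the heme synthesis enzyme of red cell precursors, was at 35.6 CPM in WT 1 (3.51 to 7.96) and 59.8 CPM in cKO 1 (3.52 to 7.82), and the globin gene Hbb-b1 at 3.25 CPM in WT 1 (0.439 to 0.73) and 6.63 CPM in cKO 1 (0.17 to 0.486). The part of these libraries in the mural results is given by the values without them.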

How the results depend on the processing

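DESeq2 called 1012 genes, 6 members, 5 other contractile, 2 vascular Notch, 7 endothelial, 7 glial, 9 fibroblast and 3 neuronal genes, where edgeR called 397, 2, 1, 1, 3, 2, 6 and 1. Library size alone as the scaling gave 2 other contractile and 5 endothelial genes and 343 of 488 genes higher (70.3%, against 234 of 397 or 58.9%). Without both WT 1 and cKO 1, 4 other pericyte genes passed in place of 7, and 0 other contractile and 0 Notch genes, with 8 and 3 at an unadjusted p below 0.05, but 5 endothelial and 4 glial genes. Without these libraries 2673 of all 14598 tested genes had an unadjusted edgeR p below 0.05. With each library left out in turn, edgeR called 74 to 514 genes in all, 0 to 4 members, 0 to 5 other pericyte, 0 to 2 other contractile and 0 to 1 Notch genes. At least 8 members kept an unadjusted p below 0.05 in each of these settings, and each of the 9 kept a positive log2 fold change. Of all tested genes, 1801 of 14730 (without WT 2) to 2685 of 14711 (without WT 1) had an unadjusted edgeR p below 0.05. Same-numbered libraries did not deviate together in every pair (correlations of deviations 0.725, 0.352, -0.302 and 0.265 for numbers 1 to 4), so the numbers were not taken as pairs. A replicate block for them called 687 genes, 5 members (Pdgfrb, Notch3, Kcnj8, Acta2 and Tagln), 2 other contractile, 2 Notch, 7 endothelial, 7 glial, 2 neuronal and 1 skeletal muscle genes. The log2 fold changes that changed sign were of genes that did not pass: without cKO 1, Alas2 (-1.28), Hbb-b1 (-2.14) and Tnni2 (-0.87); without both WT 1 and cKO 1, Alas2 (-0.16) and Tnni2 (-0.20); and with limma voom Hbb-b1 (-0.60). With each library left out in turn, these 3 reached at most 1.59, 1.62 and 2.27 for Alas2, Hbb-b1 and Tnni2, each without WT 1. The cause was not tested. The ratios of members called 0 of 19 with either prior count; with 7 libraries the smallest possible exact p is 0.0571, so leaving out a library gave values only. Of the 19 ratios 10 changed sign with 1 library left out, among them Acta2 to Pdgfrb (0.33, range -0.02 to 0.63), Myh11 to Pdgfrb (0.24, range -0.14 to 0.63) and Tagln to Pdgfrb (0.09, range -0.17 to 0.31). Depth limited Cnn1, with 2 to 32 counts a library.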
